A study of Mus musculus with 14 samples.

Results

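The Foxp3 locus and its regulatory elements were taken as the windows of the ATAC-seq count table whose centre lies in a 40-kb stretch of chromosome X that holds Foxp3 and the start of its upstream neighbour. Of the 240778 windows in the table, 6470 lie on chromosome X and 28 met this rule, each 201 bp from its start to its end. The measurement is ATAC-seq: a transposase cuts open chromatin and tags the cuts for sequencing, so that the number of reads in a window tracks its accessibility. It was made on Treg cells from spleen and lymph nodes, 50000 cells per library. All mice carried Foxp3-AID, in which Foxp3 is fused at its N terminus to a degron, and all were given the ligand 5-ph-IAA. Foxp3-AID ROSA26-TIR1(F74G) mice (R26TIR1(F74G)) also carry the TIR1(F74G) receptor that couples the ligand to degradation of the fusion protein, and Foxp3-AID ROSA26-WT mice (R26WT) lack it. Day 3 of treatment has 4 libraries of each genotype and day 7 has 3 of each, 14 in all, with each library named for a mouse.

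By the study's methods, the targeted Foxp3 allele also encodes ZsGreen and iCre from a cassette set behind the stop codon, and this iCre removes a stop element in front of the TIR1(F74G) transgene, which is driven by the CAG promoter. The receptor is therefore made only in cells that have used the Foxp3 gene. The inserted sequences are not part of the reference genome to which reads were aligned, and their distance from the windows at the end of the gene was not determined here. The labels give no age, sex or activation state. For day 7, the study describes ATAC-seq of resting and activated cells from Foxp3AID/WT mice. These mice hold Treg cells that use either the tagged or the untagged allele. By the study's methods, Treg cells were sorted by ZsGreen, which the tagged allele encodes. The reporting summary gives heterozygous mice as females. Degradation acts on the protein, so reads at the gene do not show whether it took place.

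Foxp3 is the transcription factor that defines the Treg cell lineage, and its gene is read out through a set of conserved non-coding sequences (CNS). The promoter carries little activity on its own. CNS1 is a TGF-β responsive enhancer used in peripheral induction, CNS3 raises the chance that the gene is switched on in the thymus, CNS0 is an early upstream enhancer, and CNS2, in the first intron, holds the Treg-specific demethylated region through which dividing Treg cells keep the gene on. CNS2 is bound in Treg cells by Runx and Cbfb, Ets1, STAT5, NFAT and by Foxp3 itself. Flicr is a non-coding RNA whose gene begins upstream of Foxp3 and runs into it on the same strand, and it is known as a restraint on Foxp3 expression. Ppp1r3f, on the opposite strand, encodes a targeting subunit of protein phosphatase 1, and Ccdc22, which ends inside the last part of Foxp3, encodes a component of an endosomal sorting complex.

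Start sequences of Foxp3 and Ppp1r3f are shown because the windows analysed here cover them differently. The start of Ppp1r3f lies in the most accessible window of the locus, and none of the windows lies at the start of Foxp3. The sequences are RefSeq's for GRCm38.p6, 300 bases each, from 250 bases before to 50 bases after the start site, written 5′ to 3′ on the gene's own strand. Capitals mark every match, on either strand, to 7 motifs: RUNX (TGTGGT), STAT (TTCNNNGAA), forkhead (GTAAACA), CRE (TGACGT), NFAT (GGAAA), TATA box (TATAAA) and GC box (GGGCGG). A match is a description of the letters and not evidence of binding.
Foxp3, first start, chrX:7579426-7579725, plus strand: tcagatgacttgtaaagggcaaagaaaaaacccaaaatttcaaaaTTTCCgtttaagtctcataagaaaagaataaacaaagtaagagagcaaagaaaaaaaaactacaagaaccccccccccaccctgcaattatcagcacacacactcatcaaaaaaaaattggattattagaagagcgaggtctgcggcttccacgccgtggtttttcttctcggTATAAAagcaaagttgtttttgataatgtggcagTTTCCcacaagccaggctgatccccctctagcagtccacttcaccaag
Foxp3, second start, chrX:7580233-7580532, plus strand: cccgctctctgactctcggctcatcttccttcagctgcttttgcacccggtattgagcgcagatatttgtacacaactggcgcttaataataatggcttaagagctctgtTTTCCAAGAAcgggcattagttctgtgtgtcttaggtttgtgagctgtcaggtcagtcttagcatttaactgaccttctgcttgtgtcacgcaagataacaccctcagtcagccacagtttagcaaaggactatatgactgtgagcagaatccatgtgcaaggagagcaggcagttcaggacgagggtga
Ppp1r3f, chrX:7574232-7574531, minus strand: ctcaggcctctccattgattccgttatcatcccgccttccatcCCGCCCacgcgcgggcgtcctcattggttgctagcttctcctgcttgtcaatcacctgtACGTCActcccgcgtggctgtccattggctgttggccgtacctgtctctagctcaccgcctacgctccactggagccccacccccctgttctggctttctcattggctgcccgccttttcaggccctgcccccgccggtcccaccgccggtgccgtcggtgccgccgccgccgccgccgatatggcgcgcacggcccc

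The first Foxp3 start holds a TATA box match whose first base is at position 219, counted from the 5′ end of the printed sequence, and NFAT matches at positions 46 and 253. The second start holds a STAT match at position 112 and an NFAT match at position 111, which overlap and print as 1 run of capitals. The Ppp1r3f start holds a GC box match at position 44 and a CRE match at position 103. Of 32851 RefSeq start sequences of this length, 13.6% hold a TATA box match, 61.3% an NFAT match, 8.30% a STAT match, 35.7% a GC box match, 7.51% a CRE match, 16.8% a RUNX match and 3.65% a forkhead match. The first Foxp3 start is poor in G and C (40.7%, above 11.4% of all start sequences) with 6 CpG dinucleotides, whereas the Ppp1r3f start is 66.7% G and C with 29 CpG dinucleotides, more than 87.1% of start sequences. The median start sequence is 52.7% G and C with 7 CpG dinucleotides. The start sequence of Flicr, chrX:7573350-7573649, holds none of the 7 motifs and 20 CpG dinucleotides.

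The 28 windows fell into 17 regions of windows that do not overlap and into 4 clusters. Positions are given from the Foxp3 start site (chromosome X, 7579676, GRCm38) and are negative upstream. The first cluster lies inside the body of Ppp1r3f, with 6 windows in 5 regions between -14089 and -11941 bp. The second lies at the facing starts of Ppp1r3f (7574281) and Flicr (7573600), with 4 windows that do not overlap between -5993 and -4485 bp. The third is CNS2 with a stretch just behind it, 3 windows in 2 regions between 4238 and 5038 bp. The fourth is the 3′ end of Foxp3 together with the last part of Ccdc22, 15 windows in 6 regions between 14385 and 16572 bp, where the annotated genes overlap by 1435 bp on opposite strands. Counts here cannot be assigned to a gene of a pair, and exons were not used.

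Known elements were matched by their approximate distance from the start site. The window from 7583914 to 7584115 (4238 to 4439 bp) lies at CNS2. None of the windows analysed here lies at the promoter, CNS0, CNS1 or CNS3, and the nearest windows to the start site are 4485 bp upstream and 4238 bp downstream, a gap of 8723 bp. A window within 1 kb of a start site was present for 56.7% of 21441 protein-coding genes. In the list of Treg cell markers it was present for 7 of 10, with Foxp3, Tnfrsf18 and Itgae as the exceptions, and in the list of general T cell markers for 9 of 9. The accessibility of the promoter and of CNS0, CNS1 and CNS3 was therefore not analysed here. The lack of a window does not show that a site was closed.

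**Figure D1:**
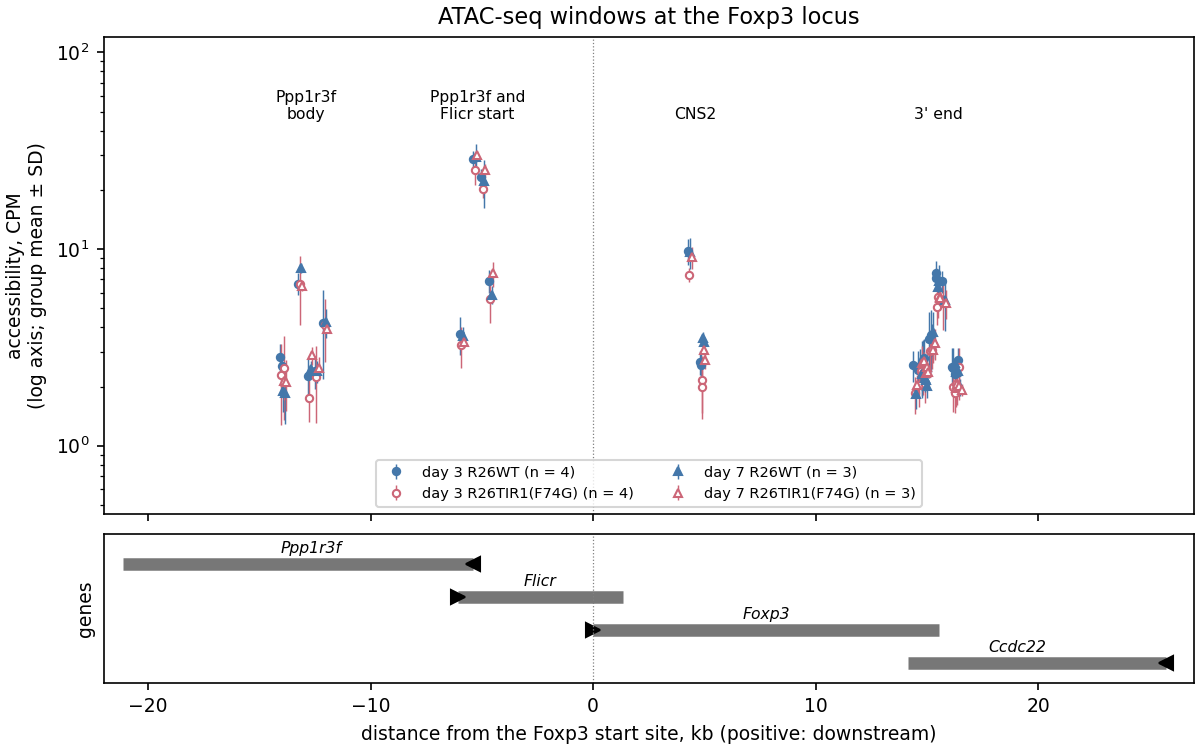
Accessibility of the 28 windows (upper panel, CPM on a log axis, group mean ± SD) against distance from the Foxp3 start site in kb, with gene bodies and their start sites (arrowheads) in the lower panel. Circles are day 3 and triangles day 7, filled for R26WT and open for R26TIR1(F74G). The windows sit in 4 clusters, the highest at the Ppp1r3f start with a mean of 28.1 CPM and the next cluster by its highest window at CNS2 with 8.92 CPM, and no window lies near the start site of Foxp3.

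Accessibility was compared in CPM, each count scaled to a common library size after correction for composition (TMM). The window from 7574275 to 7574476, which contains the start of Ppp1r3f, was the most accessible of the locus, with 28.1 ± 3.70 CPM (SD, n = 14 libraries), higher than 97.9% of all windows. The next window, from 7574647 to 7574848 inside Flicr, had 22.6 ± 3.45 CPM and was lower in 14 of 14 libraries. CNS2 came next with 8.92 ± 1.54 CPM, above the next window in 13 of 14 libraries and higher than 89.9% of all windows.

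Below CNS2 the order was less clear. The window from 7566412 to 7566613 in the body of Ppp1r3f had 6.91 CPM, the window over the annotated end of Foxp3 (7595098 to 7595299) 6.48 CPM, the last window of the start cluster (7574990 to 7575191) 6.44 CPM and the window just past the end of Foxp3 (7595351 to 7595552) 5.79 CPM. Neighbours in this run were in the stated order in 8 or 9 of 14 libraries, so their order did not exceed the spread between libraries. The remaining 10 regions had 2.09 to 4.12 CPM at their highest windows. The window past the end of Foxp3 stood above the next one in 14 of 14 libraries (5.79 against 4.12 CPM).

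Summed over the highest window of each region, the locus held 113 ± 12.3 CPM (SD, n = 14). The starts of Ppp1r3f and Flicr made up 53.7% ± 3.17 of this sum, the 3′ end 20.02% ± 2.30, the Ppp1r3f body 15.9% ± 2.18 and CNS2 with its neighbour 10.4% ± 1.49. Over the libraries the share of the starts ranged from 46.8% to 58.8%, that of the 3′ end from 16.6% to 24.8%, that of the Ppp1r3f body from 13.5% to 22.6% and that of CNS2 with its neighbour from 7.77% to 12.8%. Relative to the Ppp1r3f start, CNS2 stood at 0.344 ± 0.0520 in R26WT and 0.299 ± 0.0622 in R26TIR1(F74G) on day 3 (SD, n = 4 each), and at 0.335 ± 0.0760 and 0.301 ± 0.0340 on day 7 (SD, n = 3 each). The ranges of the groups overlapped on both days.

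Counts in all windows ranged from 5653289 to 20184487 per library, and the highest windows of the 17 regions held 605 to 2350 of them. The share of a library's counts in the 20000 most accessible windows was between 42.8% and 48.8%. On day 3 it was 44.9%, 46.0%, 47.3% and 48.8% in R26WT and 45.7%, 46.1%, 42.8% and 44.2% in R26TIR1(F74G), so that the lowest was in R26TIR1(F74G) replicate 3, which also had the lowest locus sum (84.3 CPM), and the highest in R26WT replicate 4, which had the highest (134 CPM). On day 7 the lowest, 42.9%, was in R26WT replicate 3. The part of this share in the results was not tested. With a mean count of 131 per library at CNS2 (40 to 190), counting alone gives a coefficient of variation of 8.74%, against 17.3% observed over the 14 libraries. The latter also holds differences between groups. Within R26WT and R26TIR1(F74G) it was 15.3% and 8.36% on day 3, and 17.8% and 12.8% on day 7.

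The cells were checked by start sites of marker genes. General T cell markers had a median of 14.7 CPM over 9 of 9 genes, and Treg cell markers 9.93 CPM over 7 of 10. B cell markers had a window for 3 of 8 genes (median 3.497 CPM; none for Ms4a1 or Pax5) and myeloid markers for 4 of 8 (3.67 CPM; none for Csf1r or Lyz2), while Cd8b1 and Cd8a had 12.5 and 1.33 CPM. Summed B cell marker accessibility was 7.74 to 11.4 CPM in R26WT and 10.7 to 14.9 CPM in R26TIR1(F74G) on day 3, and 9.56 to 14.8 and 7.38 to 13.6 CPM on day 7; myeloid sums overlapped on both days (11.3 to 14.3 CPM over all 14 libraries). By the study's methods, CD4+ T cells were enriched and Treg cells then sorted as CD4+TCRβ+ZsGreen+ from R26WT mice. For R26TIR1(F74G) mice, mCherry+ was a further gate. The purity of the sorted cells was not examined here. The part of other cell types in the results was not tested. The window at the start of Xist, an RNA expressed from the inactive X chromosome, had 8.35 to 12.3 CPM over the 14 libraries. In bulk libraries, fewer cells with an open site and less opening per cell cannot be told apart, nor can the alleles of a gene on chromosome X.

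On day 3, accessibility of the Foxp3 locus was lower on average in R26TIR1(F74G) than in R26WT libraries, and at no window did the difference pass the test. CNS2 had 7.62, 10.8, 10.8 and 10.0 CPM in the R26WT libraries and 7.19, 6.65, 7.53 and 8.12 CPM in the R26TIR1(F74G) libraries. All but 1 R26WT library lay above every R26TIR1(F74G) library, and R26WT replicate 1 lay among them. The means were 9.81 ± 1.501 and 7.37 ± 0.616 CPM (SD, n = 4 each), a log2 fold change of -0.42 (standard error, SE, 0.15, 95% interval -0.72 to -0.12), with an adjusted p of 0.535 by the quasi-likelihood test of edgeR, adjusted by Benjamini-Hochberg over 235515 windows. Its unadjusted p was 0.00744.

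The window over the end of Foxp3 had 7.62, 6.35, 7.31 and 8.97 CPM in R26WT and 7.01, 6.33, 4.32 and 5.07 CPM in R26TIR1(F74G) on day 3. The groups overlapped, and the log2 fold change was -0.44 (SE 0.17, adjusted p = 0.554 by edgeR). A window that overlaps it, from 7595066 to 7595267, was the single member whose groups did not overlap on day 3, with a log2 fold change of -0.48 and the lowest p of the locus (0.00706, adjusted p = 0.532 by edgeR). Over all windows tested on day 3 the groups did not overlap in 4.1%. The window just past the end of Foxp3 had a log2 fold change of -0.39 (adjusted p = 0.618 by edgeR).

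At the Ppp1r3f start, the 4 R26WT libraries had 26.1, 26.8, 29.0 and 32.5 CPM and the 4 R26TIR1(F74G) libraries 24.1, 30.1, 20.2 and 26.5 CPM. These groups overlapped widely, with a log2 fold change of -0.17 (SE 0.12, adjusted p = 0.788 by edgeR). It was -0.070 without R26TIR1(F74G) replicate 3, -0.27 without R26TIR1(F74G) replicate 2 and -0.11 without R26WT replicate 4. The window inside Flicr from 7574647 to 7574848 had -0.21 (SE 0.12, adjusted p = 0.729 by edgeR). In the body of Ppp1r3f, the changes of the 6 windows lay between -0.41 and -0.11.

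Over the locus, 0 of 28 windows were called on day 3 by edgeR, as were 0% of the 235515 windows tested. The lowest adjusted p of all windows was 0.0827 by edgeR. DESeq2 called 0 at the locus in each of the 6 comparisons. It gave no adjusted p for 200908 windows on day 3, 210066 over both days and 4637 between days in R26TIR1(F74G), so it could not call those. The last window of the start cluster was among them on day 3. Unadjusted p-values under 0.05 were found for 4 windows in 3 regions, all lower in R26TIR1(F74G), where 7.55% of all windows reached it. All 28 fold changes were below 0, with a median of -0.22. Of all windows tested, 48.8% were lower in R26TIR1(F74G) (median 0.01), and of those on chromosome X, 40.6%.

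Most of the more accessible windows of the genome also had fold changes below 0 on day 3. Of the 105765 windows at least as accessible as the least accessible highest window of a region (2.09 CPM), 60.6% were lower in R26TIR1(F74G), with a median of -0.05 on the log2 scale. Of the 24205 windows at least as accessible as CNS2, 80.3% were lower, with a median of -0.11, and 14.01% had an unadjusted p under 0.05. CNS2 lay at the low edge of these, with 1.02% of them having a lower fold change. The set starts at the level of CNS2 itself, so CNS2 has the lowest mean in it. Its SE on day 3 was 0.15, against 0.12 at the more accessible Ppp1r3f start. The median over the locus was -0.14 without R26TIR1(F74G) replicate 3, with 26 of 28 windows lower, and -0.35 without R26TIR1(F74G) replicate 2, with 28 of 28.

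**Figure D2:**
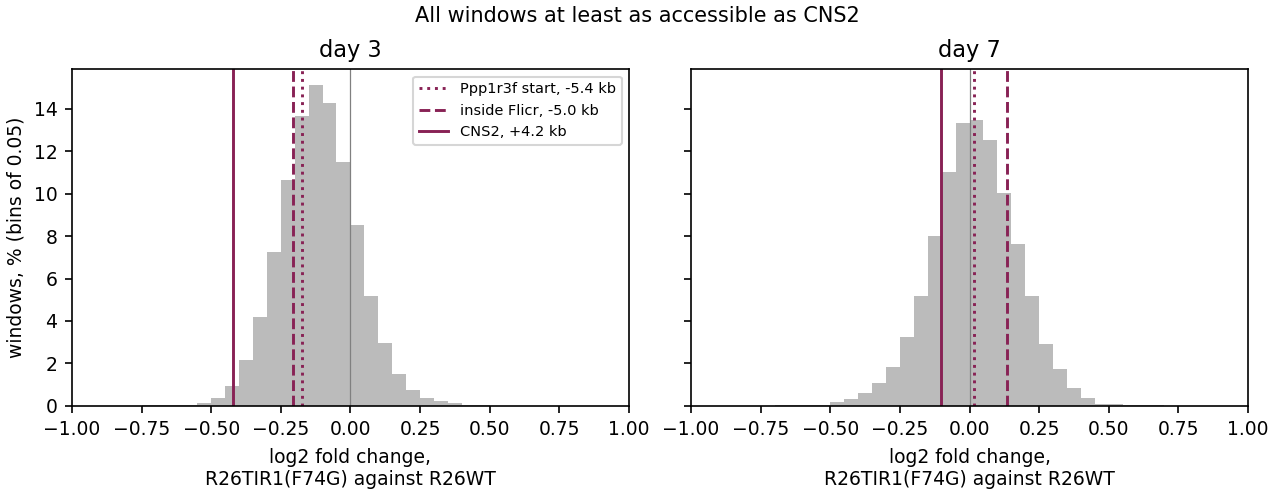
Distribution of log2 fold changes, R26TIR1(F74G) against R26WT, over the 24205 windows at least as accessible as CNS2, on day 3 (left) and day 7 (right), as the percentage of windows per bin, with vertical lines for the 3 most accessible windows of the Foxp3 locus. On day 3 the distribution is centred on -0.11 with CNS2 at -0.42, and on day 7 it is centred on 0.02 with CNS2 at -0.10.

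On day 7, the genotypes were closer at most of the locus. CNS2 had 11.6, 8.49 and 8.85 CPM in R26WT and 7.75, 9.89 and 9.61 CPM in R26TIR1(F74G), with R26WT replicate 1 the highest and the remaining libraries intermixed. Its log2 fold change was -0.10 (SE 0.16, 95% interval -0.41 to 0.21). The direction turned without R26WT replicate 1 (0.076) or R26TIR1(F74G) replicate 1 (0.0028), and leaving out the second replicate gave -0.21 for that of R26WT and -0.16 for that of R26TIR1(F74G). The interval leaves out a decrease to less than 0.751 of the R26WT level (0.673 to 0.823 without each library) and does not show that the groups were alike. The window behind CNS2 (7584480 to 7584681) had 3.62, 3.72 and 3.299 CPM in R26WT and 2.99, 2.92 and 3.24 CPM in R26TIR1(F74G), groups that did not overlap, with a log2 fold change of -0.23 (SE 0.21, adjusted p = 0.925 by edgeR). In 11.8% of all windows the groups of 3 did not overlap on day 7. At the locus they did not in 4 of 28, or 2 of 17 over the highest window of each region.

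The last window of the start cluster, inside Flicr, had the highest log2 fold change of the locus on day 7. It had 5.23, 6.51 and 5.85 CPM in R26WT and 8.503, 6.32 and 7.74 CPM in R26TIR1(F74G), so that 1 R26TIR1(F74G) library lay within the R26WT range, and its log2 fold change was 0.36 (SE 0.17, 95% interval 0.02 to 0.70, adjusted p = 0.83 by edgeR). In the body of Ppp1r3f, the window from 7566412 to 7566613 had 8.08, 8.43 and 7.497 CPM in R26WT and 6.15, 6.44 and 6.83 CPM in R26TIR1(F74G). These groups did not overlap, and the log2 fold change was -0.32 (SE 0.16, adjusted p = 0.838 by edgeR). The window over the end of Foxp3 had 5.94, 8.49 and 6.30 CPM in R26WT and 5.29, 5.19 and 6.48 CPM in R26TIR1(F74G), a log2 fold change of -0.31 (SE 0.17, adjusted p = 0.869 by edgeR). R26WT replicate 2 was the highest of the 6 libraries, and without it the value was -0.10. The Ppp1r3f start differed by 0.02 on the log2 scale (SE 0.12).

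By edgeR, 0 of 28 windows were called on day 7, against 0.00463% of the 237811 tested. The 2 windows with an unadjusted p under 0.05 (1 higher and 1 lower) compare with 5.95% of all windows. Fold changes below 0 were found at 15 of 28 windows (median -0.07, and 0.0071 without R26TIR1(F74G) replicate 1), against 51.0% of all windows. The share was 46.3% of windows with at least 2.09 CPM and 45.0% of those at least as accessible as CNS2.

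**Figure D3:**
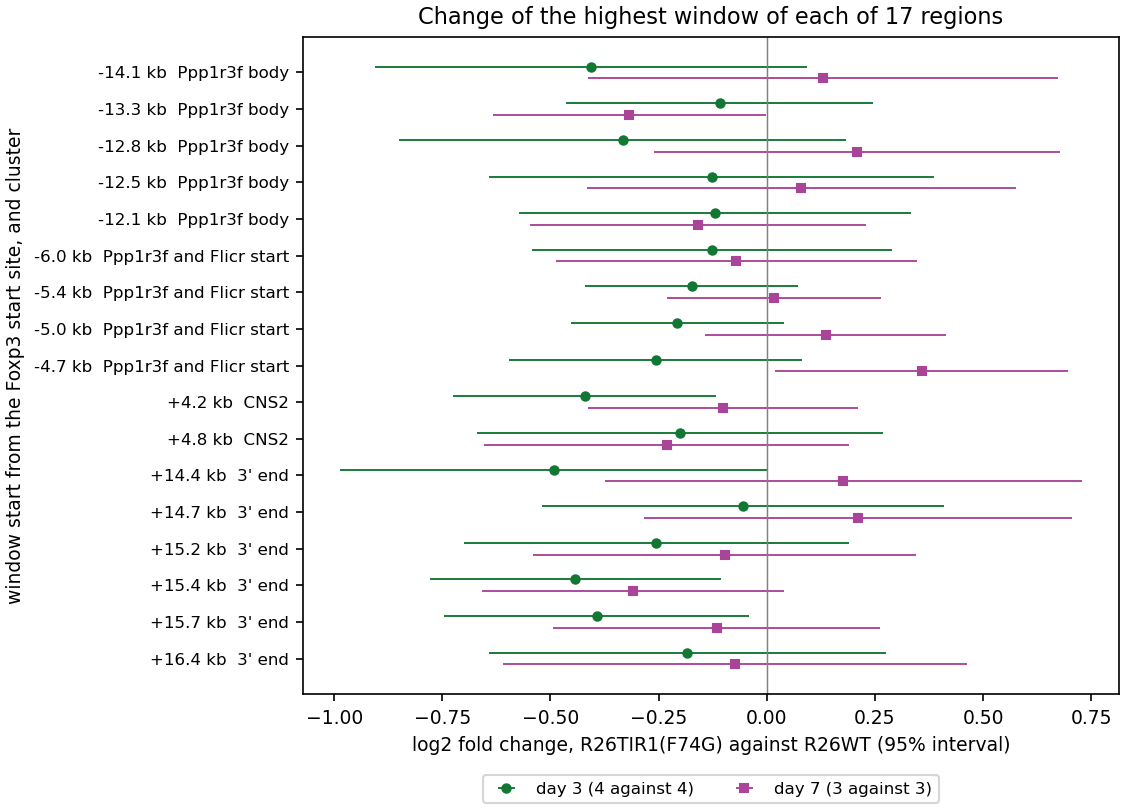
Log2 fold change of R26TIR1(F74G) against R26WT, with its 95% interval, for the highest window of each of the 17 regions, ordered from upstream to downstream of the Foxp3 start site, on day 3 (circles, 4 against 4 libraries) and day 7 (squares, 3 against 3). All 17 day 3 values lie below 0, and the day 7 values lie on both sides of it, 9 below and 8 above.

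With both days in 1 fit and day as a term, the lowest log2 fold change of the 28 windows was at the end of Foxp3. R26WT libraries had 7.28 ± 1.16 CPM and R26TIR1(F74G) libraries 5.67 ± 0.953 CPM there (SD, n = 7 each), a log2 fold change of -0.38 (SE 0.12, 95% interval -0.63 to -0.14, unadjusted p = 0.00288, adjusted p = 0.497 by edgeR). CNS2 had 9.74 ± 1.46 and 8.11 ± 1.22 CPM (SD, n = 7 each) and a log2 fold change of -0.28 (SE 0.11, 95% interval -0.50 to -0.05, unadjusted p = 0.0167, adjusted p = 0.646 by edgeR). The Ppp1r3f start had 28.9 ± 3.54 and 27.4 ± 3.97 CPM (SD, n = 7 each) and a log2 fold change of -0.09 (SE 0.09).

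Of the 28 windows, 24 were lower over both days (median -0.16) and 0 were called, against 0.0112% of the 240778 tested. Unadjusted p-values under 0.05 were found for 4, all lower, against 6.73% of all windows. Of the 105765 windows with at least 2.09 CPM, the lowest level at the locus, 55.4% were lower. Of the 24205 windows at least as accessible as CNS2, 69.1% were lower.

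Whether the genotype difference changed between the days was tested by the interaction of day and genotype. The last window of the start cluster had the largest such term relative to its error, 0.61 on the log2 scale (SE 0.24, unadjusted p = 0.015, adjusted p = 0.745 by edgeR), from lower in R26TIR1(F74G) on day 3 (-0.26) to higher on day 7 (0.36). CNS2 had 0.32 (SE 0.22, unadjusted p = 0.15, adjusted p = 0.856 by edgeR) and the end of Foxp3 0.14 (SE 0.25, adjusted p = 0.96 by edgeR). The difference between days thus did not pass the test at any of the 28 windows, and was called at 0% of all windows; 1 window had an unadjusted p under 0.05, where 6.32% of all windows did. The term was above 0 at 22 of 28 windows (median 0.21, between 0.12 and 0.30 without each library). Among windows with at least 2.09 CPM it was below 0 at 39.1%, with a median of 0.08. Among windows at least as accessible as CNS2 it was below 0 at 22.8%, with a median of 0.14.

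**Figure D4:**
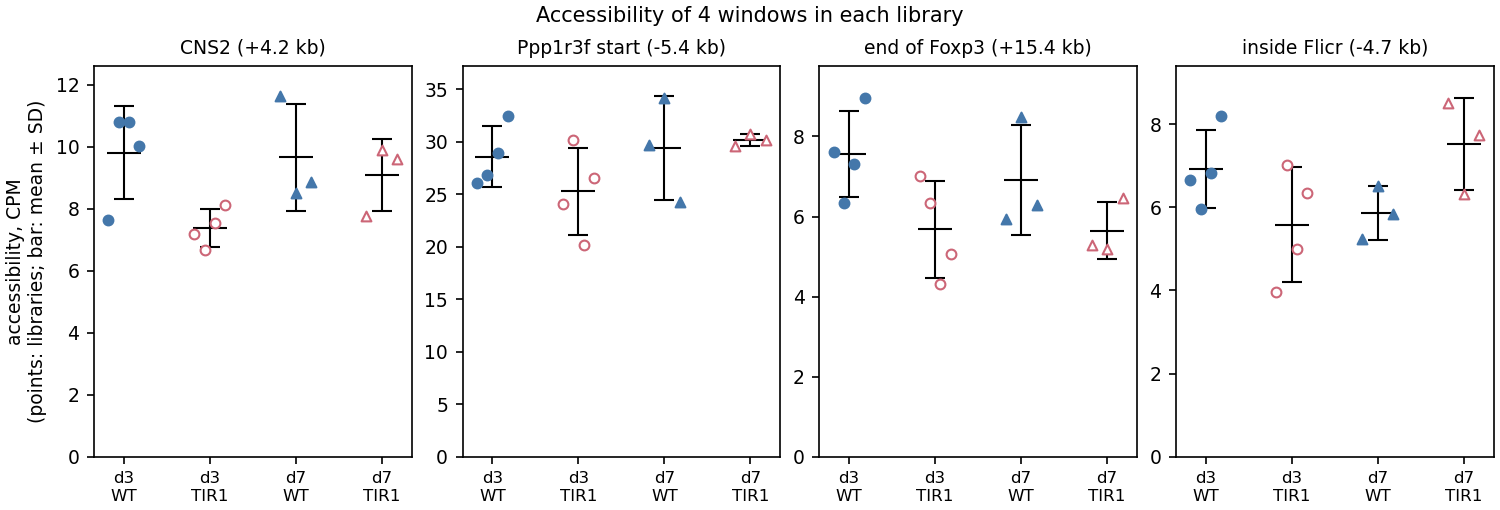
Accessibility (CPM) of 4 windows in each of the 14 libraries (points), with the group mean ± SD (bars), for CNS2, the Ppp1r3f start, the end of Foxp3 and the last window of the start cluster inside Flicr. d3 and d7 are days 3 and 7, WT is R26WT (n = 4 and 3) and TIR1 is R26TIR1(F74G) (n = 4 and 3). At CNS2 the 4 day 3 R26TIR1(F74G) libraries sit between 6.65 and 8.12 CPM. Day 3 R26WT ranges from 7.62 to 10.8 CPM and day 7 R26TIR1(F74G) from 7.75 to 9.89 CPM, both overlapping that span. Day 7 R26WT ranges from 8.49 to 11.6 CPM.

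Day 7 was also compared with day 3 within each genotype. In R26WT, CNS2 differed by -0.02 on the log2 scale (SE 0.16, 95% interval -0.33 to 0.29) and the Ppp1r3f start by 0.06 (SE 0.13). The window behind CNS2 had 2.66 ± 0.357 CPM on day 3 (SD, n = 4) and 3.55 ± 0.220 CPM on day 7 (SD, n = 3), groups that did not overlap, with a log2 fold change of 0.44 (SE 0.22, unadjusted p = 0.0461, adjusted p = 0.948 by edgeR). At the locus, 0 of 28 windows were called, against 0.003% of all windows, and 2 had an unadjusted p under 0.05, against 5.25%. The groups did not overlap at 7 of 28 windows, against 6.4% of all windows, and 5 of these 7 were lower on day 7. Some of these windows overlap one another and share reads. Over the highest window of each region it was 4 of 17, with 3 lower on day 7.

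In R26TIR1(F74G), the start cluster had higher means on day 7, and no window passed the test. The Ppp1r3f start had 25.2 ± 4.19 CPM on day 3 (SD, n = 4) and 30.2 ± 0.536 CPM on day 7 (SD, n = 3), a log2 fold change of 0.25 (SE 0.12, adjusted p = 0.699 by edgeR). The next windows toward Foxp3, inside Flicr, had 0.31 and 0.37 (SE 0.12 and 0.17, adjusted p = 0.587 and 0.685 by edgeR). CNS2 had 7.37 ± 0.616 and 9.09 ± 1.16 CPM (SD, n = 4 and 3) and a log2 fold change of 0.30 (SE 0.15, 95% interval -0.01 to 0.61, adjusted p = 0.728 by edgeR). Here 0 of 28 windows were called, as were 0% of all windows, and 4 had an unadjusted p under 0.05 (all higher on day 7), against 6.96%. The groups did not overlap at 5 of 28 windows, or 4 of 17 over the highest window of each region, against 7.19% of all windows. Lower on day 7 were 6 of the 28 windows, 39.0% of windows with at least 2.09 CPM and 24.9% of those at least as accessible as CNS2. These comparisons share libraries with those between genotypes and the labels do not say whether libraries of the 2 days were made together.

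The start sites of 34 genes for factors known to act on the Foxp3 locus, its DNA methylation or the IL-2 signal that feeds it were examined as a list. A window was present for 33 of them, with Bach2 as the exception, and their median accessibility was 22.9 CPM. By edgeR, 0 of 33 were called between genotypes on day 3, on day 7 or over both days. The interaction and the comparisons between days also gave 0. DESeq2 called 1, over both days, where it called 155 of 240778 windows and gave 210066 of these no adjusted p. On day 3, 27 of 33 were lower in R26TIR1(F74G) (median -0.15), where 80.3% of the windows at least as accessible as CNS2 were lower. On day 7, 17 of 33 were lower (median -0.01), against 45.0% of such windows, and over both days 30 of 33 (median -0.09), against 69.1%. Unadjusted p-values under 0.05 were found for 8, 3 and 6 of the 33, all lower in R26TIR1(F74G). Of all windows 7.55%, 5.95% and 6.73% reached it in these comparisons, and of those at least as accessible as CNS2 14.01%, 7.14% and 11.5%. The general T cell markers were lower at 9 of 9 start sites on day 3 (median -0.24) and 7 of 9 on day 7 (median -0.12), and the Treg cell markers at 6 of 7 and 3 of 7 (medians -0.16 and 0.06), with 0 called, beside the same 80.3% and 45.0% of the windows at least as accessible as CNS2.

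Of the listed factors, Runx3 was singled out after its values were seen, because it passed the threshold in some alternative analyses. Runx3 is a Runt family factor that pairs with Cbfb. The window at its start (chromosome 4, 135120312 to 135120513) had 12.7, 14.9, 14.8 and 15.52 CPM in R26WT and 11.1, 9.60, 10.4 and 8.20 CPM in R26TIR1(F74G) on day 3, and 14.2, 16.2 and 11.996 against 10.96, 12.1 and 10.7 CPM on day 7. The genotypes did not overlap on day 3 and overlapped by 1 library on day 7. Over both days its log2 fold change was -0.48 (SE 0.10, 95% interval -0.68 to -0.28, adjusted p = 0.0834 by edgeR). The adjusted p was 0.000996 by DESeq2 and, by edgeR, 0.0468 with total counts in place of TMM, 0.0202 with windows of a mean count of at least 50, 0.0415 without day 3 R26TIR1(F74G) replicate 1 and 0.025 without day 7 R26WT replicate 3, and it lay between 0.0521 and 0.31 in the other alternatives. For Il2ra, the high-affinity IL-2 receptor chain, the change over both days was -0.37 (adjusted p = 0.378 by edgeR).

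The pattern of CNS2 over the 14 libraries was compared with the most accessible window of each of 11075 protein-coding genes. The closest were in Dpy30, a subunit of histone H3K4 methyltransferase complexes (Pearson r = 0.88, Spearman rho = 0.89), Atp8a2 (r = 0.84), Exosc4, a subunit of the RNA exosome (r = 0.84), Ampd3 (r = 0.83) and Eif4e2 (r = 0.81). The median r over all these genes was 0.26, and 95% of them lay between -0.26 and 0.63. The values share each library's depth and normalization. Without the 2 libraries farthest from the CNS2 median, r was 0.84 for Dpy30, 0.74 for Atp8a2, 0.79 for Exosc4, 0.83 for Ampd3 and 0.76 for Eif4e2. Within the locus, CNS2 went with the Ppp1r3f start at r = 0.36, with the window behind it at 0.34, with the end of Foxp3 at 0.17 and with the window from 7594352 to 7594553 near the end of Foxp3 at -0.36.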

How the data were processed

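ATAC-seq was measured in 14 libraries of Treg cells. The authors aligned reads with Bowtie2 to mm10, called peaks with MACS2, merged reproducible peaks and counted reads at their summits with featureCounts, without versions in the labels. The deposited values are these raw counts per window, and the authors' handling of duplicates and of the transposase offset is not given in the sources used here. Groups came from the labels, and each column was matched by the mouse named in both. The members and lists were chosen with earlier results of these data known.

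Counts were tested with edgeR 4.0.16 (limma 3.58.1, R 4.3.3) by the quasi-likelihood test with TMM factors. A window entered a comparison where its count averaged 10 or more over the libraries compared, with Benjamini-Hochberg adjustment over all of them and a threshold of 0.05. The 6 comparisons were the genotypes within day 3, within day 7 and across the days (day as a covariate), the interaction of day and genotype, and the days within each genotype. Each standard error was derived from the fold change and the F statistic. All 28 windows passed the count filter in every comparison. Tests were also run on counts simulated from the fitted dispersions, with known changes larger than those between genotypes at the locus. They do not show how well changes of that smaller size are found. CPM used TMM factors over all 14 libraries, and patterns were compared as log2(CPM + 0.5). Nothing in the labels says that libraries of a group are separate animals beyond the mouse names, so p-values measure the spread between these libraries, and counting error covers reads, not molecules. Counts of replicates differed beyond counting error in all 18 pairs (chi-square per degree of freedom 1.62 to 2.46).

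Every member is accounted for. Values in every library are given for the highest window of a group of overlapping windows where a result turned on it, and clusters are separated by gaps over 3 kb. Gene positions are RefSeq's for GRCm38.p6, the build named mm10. A sequence by coordinates was not read, since the genome used here is of another build. Replicate numbers are shared by the groups without a stated link. Alternatives were DESeq2 1.42.0, other normalizations and filters, a fit of all 14 libraries, a replicate block, a mouse name prefix term and each library left out.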

Additional observations from a re-analysis of the deposited data

Results flagged for a closer look

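Of 44 sets of 4 day 3 libraries examined at the highest window of each region and at the cluster sums, 2 held a library far from the others, where chance gives about 1 in 20, or 2.2. In the body of Ppp1r3f, the window from 7566412 to 7566613 had 10.4 CPM in day 3 R26TIR1(F74G) replicate 1, against 5.07 to 5.74 CPM in the other 3 libraries of its group. This is the least deeply sequenced library (5653289 counts). Also in the body of Ppp1r3f, the window from 7567145 to 7567346 had 1.72 CPM in day 3 R26WT replicate 2, against 2.60 to 2.71 CPM in the other 3. With 3 libraries per group, day 7 was not examined in this way.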

How the results depend on the processing

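No window of the Foxp3 locus that an alternative run could call passed the threshold in any of the 6 comparisons, leaving out each library included (0 to 0 windows). Not every run could call all 28. Requiring a mean count of 50 or more kept 9 of them for the day 3 genotype comparison and 13 for that of day 7. The medians of that run cover only the windows kept. DESeq2 could not call windows to which it gave no adjusted p. Of the 34 listed regulators, 1 start site, that of Runx3, passed over both days by DESeq2, with total counts and with the stricter filter, a mean count of 50 or more (1 in each), and leaving out each library gave 0 to 1. Over all windows, DESeq2 called 155 in this comparison, total counts 37 of 240778 and the stricter filter 83 of 66750. The median log2 fold change over the locus on day 3 lay between -0.28 and -0.17 under the 9 other alternatives, and without each library between -0.35 and -0.14 (24 to 28 of 28 windows lower), the former without R26TIR1(F74G) replicate 2. On day 7 the range without each library was -0.10 to 0.0071, with the sign changed without R26TIR1(F74G) replicate 1, and between days in R26WT -0.18 to 0.015, with the sign changed without day 3 replicate 1 and also by the stricter filter (0.0014). CNS2 on day 3 stayed between -0.52 and -0.35 without each library and between -0.48 and -0.33 under the other alternatives.

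Of 624 alternative values of fold changes and medians, 591 lay on the same side of 0 as the reported value, and of 208 counts of called windows, 203 equalled it. Values near 0 changed sign. The Ppp1r3f start on day 7 was -0.012 with TMM from chromosome X and -0.018 with the stricter filter (-0.085 to 0.14 without each library), and between days in R26WT -0.067 to 0.16. The last window of the start cluster over both days was -0.030 with TMM from chromosome X and -0.018 with the mouse name prefix (-0.057 to 0.094). CNS2 between days in R26WT was 0.020 with TMM from chromosome X and 0.010 with the stricter filter (-0.19 to 0.090), and on day 7 between genotypes -0.21 to 0.076 without each library. Between days in R26TIR1(F74G), the end of Foxp3 was -0.012 with total counts and -0.051 with the stricter filter (-0.088 to 0.12), and the window from 7566412 to 7566613 was -0.012 with the stricter filter (-0.027 to 0.26). In R26WT the end of Foxp3 ranged from -0.32 to 0.017. The cause was not tested.

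With the replicate number as a block, 0 of 28 windows passed in each comparison, CNS2 on day 3 was -0.43 (adjusted p = 0.614 by edgeR), and between days in R26TIR1(F74G) the end of Foxp3 was -0.024 and the window from 7566412 to 7566613 -0.032. Deviations of same-numbered libraries correlated at -0.08 to 0.07 over 7 pairs, so the numbers are not taken to pair the libraries.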
